A study of Mus musculus with 8 samples.

Results

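A group of 10 genes that encode effector proteins of the interferon response were examined in the unmanipulated mouse cornea, in 4 corneas of the albino inbred strain BALB/cN and 4 corneas of the black inbred strain C57BL/6N. They were Ifit1, Ifit2, Ifit3 and Ifit3b, Ifi44 and Ifi44l, Rsad2, Isg15, Usp18 and Ifi27l2a, 10 of the 54532 genes in the expression table. The genes were chosen by their names from earlier results on the same strain difference. Their difference between the strains is therefore given as a description, and no test of it is read as a result. Total RNA was sequenced from male mice of both strains, which carried no transgene and received no treatment. The sources used here do not give the age of these mice separately and do not say whether each library came from another animal, so p-values measure the spread between these 8 samples, which may be technical in part. The study compared the strains because BALB/cN is low and C57BL/6N high in lymphatic vessel growth into the cornea.

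Type I and type III interferons are secreted proteins that bind receptors on neighbouring cells and activate the kinases JAK1 and TYK2. These act on transcription factors such as STAT2, which joins IRF9 to bind the interferon-stimulated response element in front of many genes, most of them antiviral. The cornea has no blood vessels of its own, and its epithelium is exposed to viruses such as herpes simplex virus. The IFIT proteins bind viral RNA and block its translation, RSAD2 (viperin) makes a nucleotide analogue that stops viral polymerases, and ISG15 is a ubiquitin-like protein that is attached to other proteins. USP18 removes ISG15 again and also restrains signalling at the interferon receptor.

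The response element was looked for in the gene starts because it is the sequence shared by promoters of this class. Promoter windows of RefSeq (GRCm38.p6, from 250 bases before to 50 bases after the gene start) matched 8 of the 10 genes, all but Usp18 and Ifi27l2a. The core of the element, GAAANNGAAA, or TTTCNNTTTC on the other strand, was found in 5 of the 8 genes. These were 5 of their 9 windows, against 3.44% of all 32851 promoter windows. The sequences of these 5 genes are those of the reference genome, which comes from a C57BL/6 substrain, and they are shown as the 200 bases before the gene start, 5′ to 3′ on the strand of the gene, with the matches in capitals. The coordinates are chr19:34640689-34640888 on the plus strand for Ifit1, chr19:34583329-34583528 on the plus strand for Ifit3, chr19:34607757-34607956 on the plus strand for Ifit3b, chr12:26456453-26456652 on the minus strand for Rsad2 and chr4:156200819-156201018 on the minus strand for Isg15.
Ifit1: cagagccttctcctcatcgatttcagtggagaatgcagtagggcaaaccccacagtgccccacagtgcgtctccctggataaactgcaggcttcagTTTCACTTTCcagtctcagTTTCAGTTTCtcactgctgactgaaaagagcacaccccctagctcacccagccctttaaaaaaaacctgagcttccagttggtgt
Ifit3: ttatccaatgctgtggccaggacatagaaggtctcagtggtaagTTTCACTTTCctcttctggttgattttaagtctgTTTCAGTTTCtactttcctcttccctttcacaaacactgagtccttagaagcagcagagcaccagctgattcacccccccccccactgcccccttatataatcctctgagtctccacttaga
Ifit3b: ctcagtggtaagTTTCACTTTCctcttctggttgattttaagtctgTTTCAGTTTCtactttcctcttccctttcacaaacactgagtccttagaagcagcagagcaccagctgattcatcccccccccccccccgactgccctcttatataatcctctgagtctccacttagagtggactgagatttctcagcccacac
Rsad2: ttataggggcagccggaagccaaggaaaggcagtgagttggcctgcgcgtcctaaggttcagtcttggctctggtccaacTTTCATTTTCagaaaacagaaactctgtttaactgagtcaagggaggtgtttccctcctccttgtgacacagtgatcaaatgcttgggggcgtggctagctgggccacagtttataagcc
Isg15: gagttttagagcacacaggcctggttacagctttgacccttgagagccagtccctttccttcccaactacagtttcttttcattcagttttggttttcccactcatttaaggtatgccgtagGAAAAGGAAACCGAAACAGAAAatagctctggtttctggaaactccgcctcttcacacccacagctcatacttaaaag

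Ifit1, Ifit3 and Ifit3b each held 2 matches, and in all 3 genes the first was TTTCACTTTC and the second TTTCAGTTTC. They began 104 and 85 bases before the start of Ifit1, 156 and 122 bases before that of Ifit3, and 188 and 154 bases before that of Ifit3b. Rsad2 held 1 match, 120 bases before its start. Isg15 held 3 matches that overlapped at their ends, beginning 78, 72 and 66 bases before its start. Ifit2, Ifi44 and Ifi44l held none in these windows. The number depended on the spacing searched. With 1 base between the GAAA repeats (GAAANGAAA) 2 of the 8 genes held a match, Ifi44 and Isg15, against 3.17% of all windows, and with 3 bases (GAAANNNGAAA) there were 4, Ifit3, Ifit3b, Ifi44 and Rsad2, against 2.75%. Ifit3 and Ifit3b share the stretch of sequence that holds their matches, so these are not independent counts. The 3 motifs can overlap one another, and a match of letters is a description and not a site bound by a factor.

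The values are the regularized log (rlog) values of the authors, on a log2 scale and normalized for library size. This transformation shrinks differences between samples, most strongly at low counts, so read counts per cornea were also recovered by inverting it. In genes left out of the fit, 94.4% of the recovered values lay within 0.1 of a whole number at means of 20 to 1000 reads, 70.8% at 1000 to 5000 reads and 25.4% at 5000 to 20000 reads. With a random fraction added to the values of genes with means of 20 to 1000 reads, 20% lay that close to a whole number, so counts above 5000 reads were hardly resolved to single reads, and how far they were off was not measured. The recovered totals were 36.7 to 41.2 M reads in BALB/cN corneas and 29.7 to 37.0 M in C57BL/6N corneas.

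The corneas differed in tissue content. The mean rlog of 6 genes of stromal keratocytes (among them Kera, Lum and Dcn) was 12.93 in BALB/cN replicate 2 and at most 12.22 in C57BL/6N replicates 3 and 4, against 14.80 to 15.20 in the other 5, and the mean of 8 lens genes was 7.66 and 6.83 in BALB/cN replicates 1 and 4, against 4.66 to 5.39 elsewhere. The mean of 5 pigment cell genes was also highest in these 2 corneas, at 10.42 and 11.34. For 3 genes of the corneal endothelium the mean was 12.09 in BALB/cN replicate 2 and at most 11.96 in C57BL/6N replicates 3 and 4, against 12.66 to 13.02 in the other 5. Markers of the corneal epithelium, such as Krt12 (mean rlog 19.71 in both strains), were even, with list means of 16.42 to 16.63 in all 8 corneas.

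All 10 effector genes had higher values in every BALB/cN cornea than in any C57BL/6N cornea, a separation shown by 8.75% of the 25402 genes tested. Of the 10 genes, 9 passed an adjusted p of 0.01 from limma, all but Ifit2, against 2.83% of all genes tested that passed in that direction. By limma voom on recovered reads 7 of the 10 passed, and 686 of all genes tested passed in that direction. Nothing is read from these counts, since the strain contrast chose the genes. All 10 passed the filter on low values, a mean rlog of at least 0. Their rlog differences, BALB/cN minus C57BL/6N, ran from 1.18 (Ifit2) to 4.75 (Ifi44) with a median of 2.94, and the median over all genes tested was 0.01. In RNA of whole corneas, fewer cells that use a gene and less RNA per cell cannot be told apart.

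**Figure D1:**
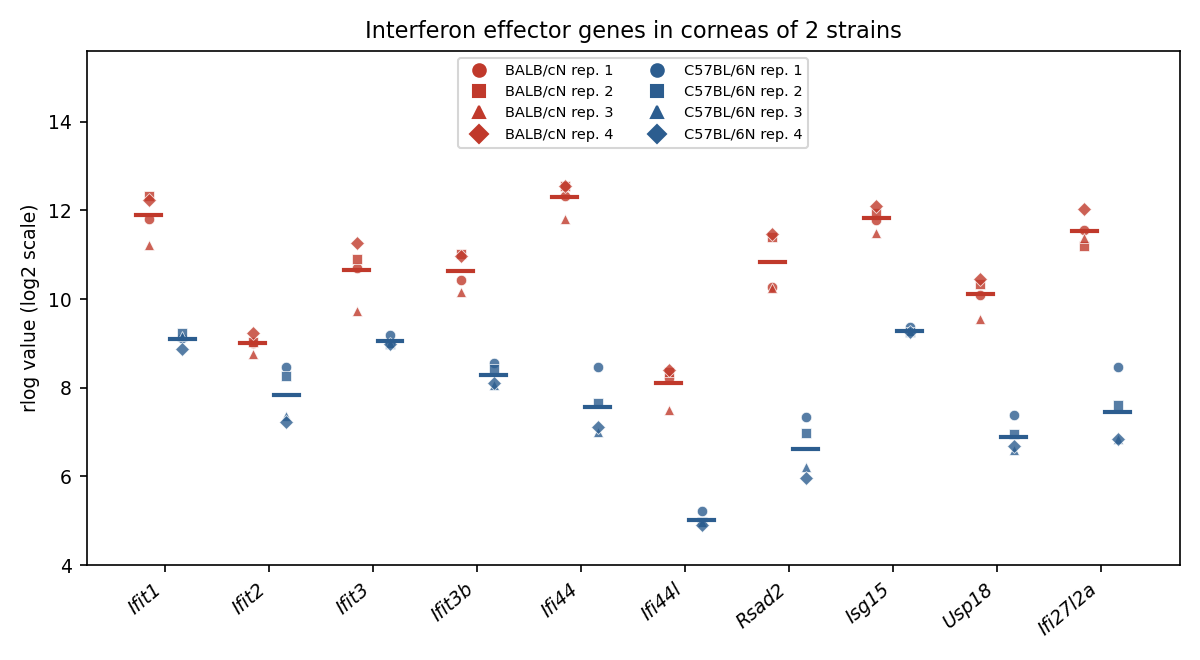
The rlog values (log2 scale) of the 10 effector genes in each of the 8 corneas, with BALB/cN in red and C57BL/6N in blue. Points are corneas, with a marker shape for each replicate number, and lines are strain means. In each gene the red points lie above the blue ones, with the narrowest gap for Ifit2 (0.30) and the widest for Ifi44 (3.35).

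The 4 Ifit genes lie within 1 cluster on chromosome 19 (GRCm38), Ifit2 at chr19:34550694-34576419, Ifit3 at chr19:34583531-34588731, Ifit3b at chr19:34607970-34613401 and Ifit1 at chr19:34640871-34650009, all on the plus strand. Ifit1 binds RNA caps that lack the methyl marks of host mRNA. It was covered by 5483, 8316, 2938 and 6952 reads in BALB/cN replicates 1 to 4 and by 362, 422, 304 and 268 reads in C57BL/6N replicates 1 to 4. The lowest BALB/cN cornea thus had several times the reads of the highest C57BL/6N cornea, and the mean of the normalized reads was 14.7-fold higher in BALB/cN (5367 ± 2058 against 365 ± 58.3, SD, n = 4 per strain).

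Ifit2, whose protein binds AU-rich RNA and pairs with the other IFIT proteins, had the smallest difference of the group. Its reads were 721, 722, 515 and 795 in BALB/cN and 350, 293, 80 and 79 in C57BL/6N. The first 2 C57BL/6N corneas came near the lowest BALB/cN cornea and the other 2, the stroma-poor ones, lay far below it. The mean of the normalized reads was 3.0-fold higher in BALB/cN (626 ± 117 against 209 ± 137). The rlog difference of 1.18 fell to 0.64 (SE 0.146) when the 3 stroma-poor corneas of both strains were left out, a choice made after seeing the data.

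Ifit3, whose protein joins other IFIT proteins in complexes, had 2375, 2807, 883 and 3453 reads in BALB/cN and 478, 395, 316 and 371 in C57BL/6N. Its near copy Ifit3b had 2006, 3294, 1420 and 2909 reads against 279, 245, 129 and 163. In both, BALB/cN replicate 3 was the lowest of its strain, and in Ifit3 it came within a rlog difference of 0.54 of the highest C57BL/6N cornea. The transcripts of the 2 genes are 97.8% identical over 1700 bases. The methods of the study do not say how reads that match both were counted. Such reads could be assigned to either gene or left out, so the separate folds of 5.18 and 10.1 are uncertain. Summed over both, the normalized reads were 4355 ± 1767 in BALB/cN and 635 ± 97.8 in C57BL/6N, 6.86-fold higher. The sum does not restore reads that were left out.

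Ifi44 and Ifi44l are neighbouring genes for related antiviral proteins, at chr3:151730922-151749960 and chr3:151758737-151762892 on the minus strand. Ifi44 had 9212, 10863, 5457 and 10002 reads in BALB/cN and 221, 84, 17 and 31 in C57BL/6N. Its rlog difference of 4.75 was the largest increase among all genes tested, on a scale that shrinks low counts most. The mean of the normalized reads was 8054 ± 2105 against 90.8 ± 93.6, 88.7-fold higher, with an SD in C57BL/6N as large as the mean. On these reads the log2 ratio of Ifi44 (6.47) lay below that of Ifi44l (7.43).

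Ifi44l was the least used of the 10 genes in C57BL/6N corneas, with 9, 2, 0 and 0 reads, while BALB/cN corneas had 585, 652, 269 and 623. Its fold rests on 11 reads in all C57BL/6N corneas together. The ratio of the pooled reads, set on library size, was 163, with an exact (Clopper-Pearson) 95% interval of 91.1 to 328 that covers counting error only. The rlog values (8.12 ± 0.42 against 5.02 ± 0.14) differed by 3.10 only, since rlog shrinks such low counts.

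Rsad2, at chr12:26442746-26456452 on the minus strand, encodes viperin. It had 2014, 5173, 1774 and 4875 reads in BALB/cN and 98, 61, 8 and 3 in C57BL/6N. Replicates 2 and 4 of BALB/cN formed a higher pair, and replicates 3 and 4 of C57BL/6N a lower one. The mean was 72.6-fold higher in BALB/cN (3160 ± 1690 against 43.5 ± 45.5 normalized reads), and the rlog difference of 4.23 ranked 6 by size of the increase among all genes tested. It was 3.50 (SE 0.375) without the stroma-poor corneas.

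Isg15, at chr4:156199424-156200818 on the minus strand, had 5315, 5901, 3735 and 6250 reads in BALB/cN and 461, 419, 335 and 397 in C57BL/6N. The C57BL/6N corneas were nearly even, at 433 ± 24.5 normalized reads, and the BALB/cN mean of 4821 ± 1067 was 11.1-fold higher. A processed pseudogene at chr17:46407004-46407484 shares 95.2% of 482 bases with Isg15 and had 164 to 349 reads in BALB/cN and 10 to 32 in C57BL/6N. Reads that match both cannot be assigned from these counts, but those of the pseudogene were few beside those of Isg15.

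Usp18, at chr6:121245906-121270917 on the plus strand, had 1846, 2220, 1026 and 2214 reads in BALB/cN and 107, 63, 26 and 39 in C57BL/6N, a 27.0-fold higher mean (1658 ± 517 against 61.5 ± 34.1). Ifi27l2a, at chr12:103442167-103443680 on the minus strand, encodes a small hydrophobic membrane protein. Its reads were 5201, 3743, 4091 and 6970 in BALB/cN and 258, 98, 19 and 26 in C57BL/6N, and the mean was 44.5-fold higher (4583 ± 1526 against 103 ± 112). In both genes C57BL/6N replicate 1 was the highest of its strain, and it still lay far below the lowest BALB/cN cornea.

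**Figure D2:**
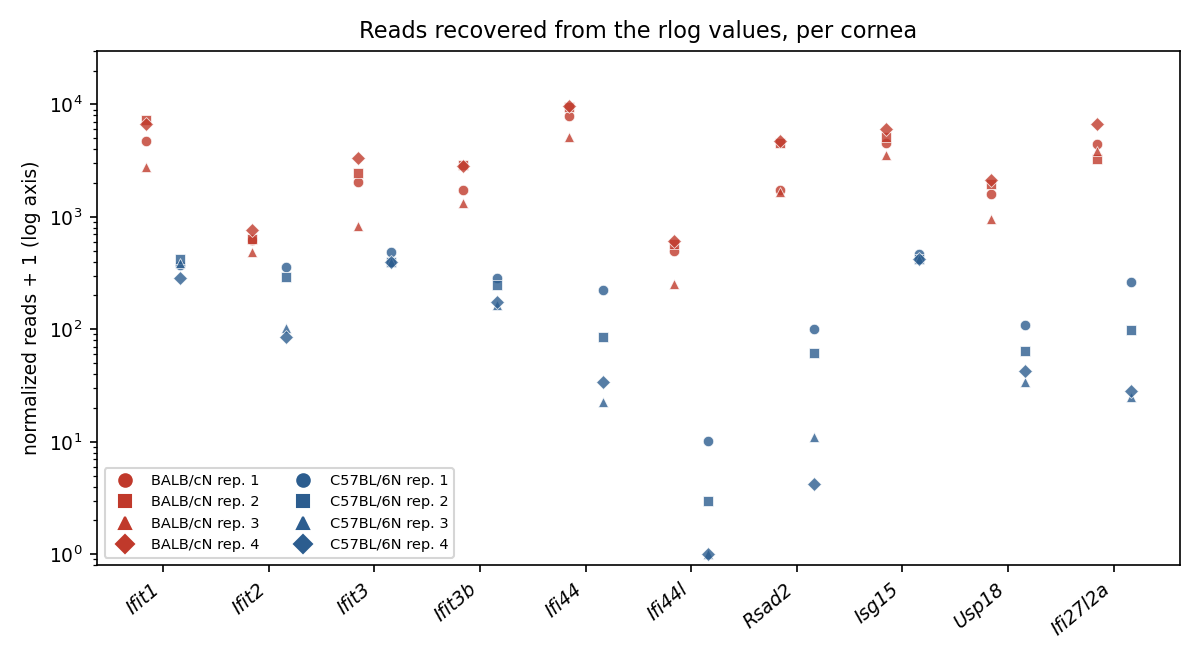
Reads per cornea, recovered from the rlog values and divided by the library size factor, with 1 added, on a log axis. BALB/cN corneas are red and C57BL/6N corneas blue. The C57BL/6N points are tight for Isg15 (419 to 470 normalized reads) and wide for Rsad2 (3.18 to 99.8) and Ifi44 (21.5 to 225), and 2 corneas have no Ifi44l read.

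Per kilobase of exon, which allows levels to be compared between genes, Ifi27l2a (mean of 9899 normalized reads per kb) and Isg15 (6377) led in BALB/cN. Their ranges over corneas overlapped, but within each BALB/cN cornea Ifi27l2a lay above Isg15. Isg15 (4649 to 8010) lay above Ifit1 (1041 to 2736) in every cornea. Below it Ifit1 (2021), Ifi44 (1314), Ifit3 (1241), Ifit3b (1094), Rsad2 (729), Usp18 (594), Ifi44l (350) and Ifit2 (159) followed, and each overlapped the next in its range. Cornea by cornea, Ifit1 still lay above Ifi44, Ifit3b above Rsad2, Usp18 above Ifi44l and Ifi44l above Ifit2, while the other pairs changed order. In C57BL/6N the order was Isg15 (573), Ifit3 (240), Ifi27l2a (223), Ifit1 (137), Ifit3b (108), Ifit2 (53.1), Usp18 (22.1), Ifi44 (14.8), Rsad2 (10) and Ifi44l (2.03). There Isg15 (554 to 621) lay above Ifit3 (225 to 279) in every cornea, and every later pair of neighbours overlapped in range. Cornea by cornea, Ifit3b still lay above Ifit2, Ifit2 above Usp18, Usp18 above Ifi44 and Rsad2 above Ifi44l, while the other later pairs changed order. Ifit2 was thus last in BALB/cN but sixth in C57BL/6N.

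Within each strain, most of the 10 genes had their highest and lowest values in the same corneas. BALB/cN replicate 3 was the lowest of its strain in 9 of the 10 genes, while 19.5% of all genes tested were lowest there. BALB/cN replicate 4 was the highest in 8 and replicate 2 in the other 2. In C57BL/6N, replicate 1 was the highest in 9 of the 10, while 24.4% of all genes tested were highest there, and replicates 3 and 4 were the lowest in 4 and 5. The median deviation of the 10 genes from their strain mean ran from -0.53 (replicate 3) to 0.34 (replicate 4) in BALB/cN and from -0.26 (replicate 3) to 0.37 (replicate 1) in C57BL/6N, all on the rlog scale. There were exceptions, such as Ifi27l2a in BALB/cN replicate 2 (-0.35, while the other 9 genes were at 0.02 to 0.56) and Rsad2 in BALB/cN replicate 1 (-0.57, while Ifi44l was at 0.09).

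The spread among C57BL/6N corneas differed widely between the genes. The highest C57BL/6N cornea had 31.4-fold the normalized reads of the lowest in Rsad2, 10.9-fold in Ifi27l2a, 10.5-fold in Ifi44, 4.26-fold in Ifit2 and 3.32-fold in Usp18. It had 1.74-fold in Ifit3b, 1.49-fold in Ifit1, 1.24-fold in Ifit3 and 1.12-fold in Isg15. In BALB/cN the same quantity ran from 1.59-fold (Ifit2) to 4.03-fold (Ifit3). In the genes with a wide spread, C57BL/6N replicates 1 and 2 were high and replicates 3 and 4 low. These corneas split in the same way by stromal genes, by endothelial genes and by the mean of the leukocyte markers given below. In BALB/cN the stroma-poor cornea, replicate 2, was the highest in Ifit1 and Ifit3b and the lowest in Ifi27l2a. The part of the stroma or of the endothelium in these values was not tested. Without the stroma-poor corneas the median rlog difference of the 10 genes was 2.72, and without the lens-rich BALB/cN replicates 1 and 4 it was 2.78.

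**Figure D3:**
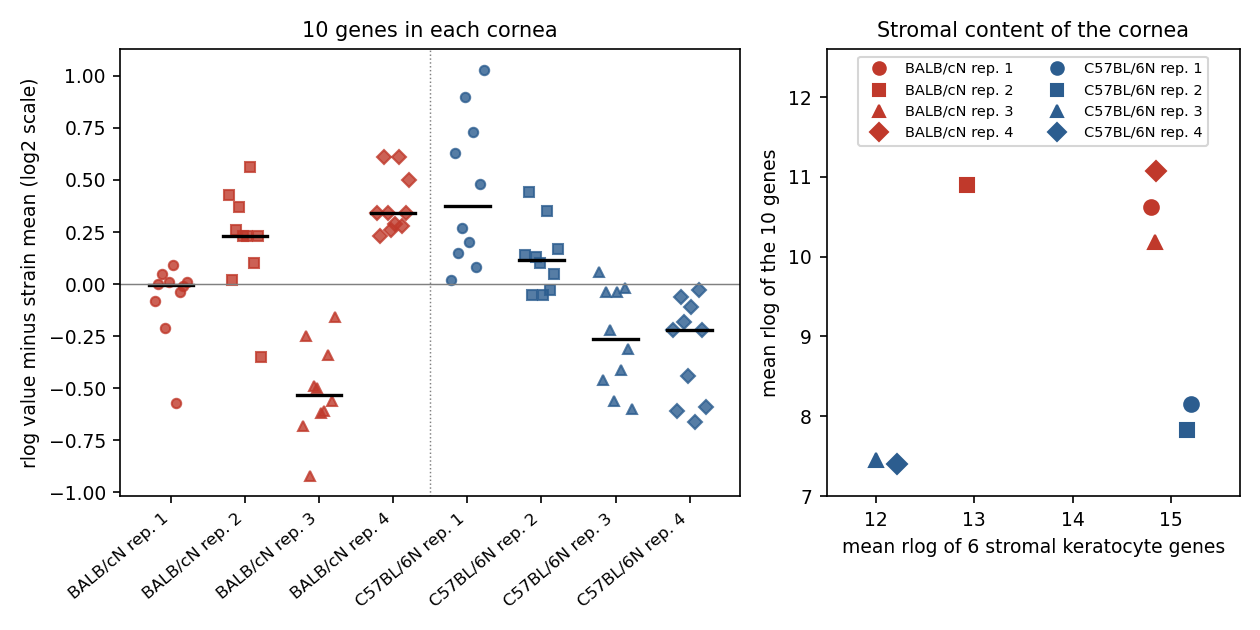
Left, the rlog value of each of the 10 genes minus the mean of its strain, by cornea, with the median as a black line. Right, the mean rlog of the 10 genes against the mean rlog of 6 stromal keratocyte genes in the same corneas. BALB/cN replicate 3 lies lowest in its strain (median -0.53) although its stroma is not low (14.84), and C57BL/6N replicates 3 and 4 are low on both axes.

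Leukocytes can carry these RNAs as well, so their markers were measured in the same corneas. In a list of 20 leukocyte markers, 14 were tested, and their mean rlog was 5.15 to 5.51 in BALB/cN and 5.13 to 5.48 in C57BL/6N. This mean was lowest in the stroma-poor corneas, at 5.15 in BALB/cN replicate 2 and 5.16 and 5.13 in C57BL/6N replicates 3 and 4, against 5.36 to 5.51 elsewhere. By limma 0 of the 14 markers were higher in BALB/cN (4 at an unadjusted p under 0.05, and 0 by limma voom on recovered reads) and 1 was lower, S100a9 (4.85 ± 0.22 against 6.39 ± 0.12, adjusted p = 3.95e-05). Of the 14, 9 had a higher mean in BALB/cN, with a median rlog difference of 0.08. The largest of these differences were those of Lyz2, at 0.67 (228 to 375 reads in BALB/cN and 51 to 221 in C57BL/6N, adjusted p = 0.0978), Csf1r, at 0.59 (90 to 414 and 30 to 318 reads, adjusted p = 0.451), and Cx3cr1, at 0.59 (54 to 163 and 6 to 83 reads, adjusted p = 0.195). The pan-leukocyte marker Ptprc had 15 to 64 and 3 to 41 reads, a mean 1.66-fold higher in BALB/cN (adjusted p = 0.525). These 4 markers were named after their values were seen. Cd8a, Ms4a1, Ncr1 and Nkg7, the markers of cytotoxic T cells, B cells and natural killer cells, were at 0 in all corneas. The part of leukocytes in the values of the 10 genes was not tested.

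The enzymes that attach ISG15 were compared next, since Isg15 and Usp18 are the substrate and the removing enzyme of the same cycle. Of 4 genes, 3 were higher in BALB/cN by limma. The conjugating enzyme Ube2l6 rose most (10.60 ± 0.19 against 9.03 ± 0.25, rlog difference 1.58, SE 0.135, adjusted p = 6.37e-05), with 1674 to 2417 reads in BALB/cN and 262 to 550 in C57BL/6N. The ligase Herc6 differed by 1.43 (SE 0.132, adjusted p = 0.000109) and the activating enzyme Uba7 by 0.63 (SE 0.0907, adjusted p = 0.00178). Trim25, a ubiquitin ligase that can also act on ISG15, had 13.31 ± 0.11 against 13.09 ± 0.12 and did not pass (adjusted p = 0.0985). Uba7 did not pass after median centring (adjusted p = 0.0214), with the replicate number as a block (0.0232) or without the lens-rich corneas (0.0516).

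Of 4 close relatives of the effector genes, 1 was past the threshold. Ifit1bl2, inside the Ifit cluster, was higher in BALB/cN (7.18 ± 0.23 against 5.92 ± 0.21, limma adjusted p = 0.000398), with 144 to 269 reads against 12 to 47. Ifit1bl1, inside the same cluster, had 10071 to 14520 reads in BALB/cN and 12061 to 15224 in C57BL/6N, an rlog difference of -0.35 (SE 0.110) that did not pass (adjusted p = 0.0792). Ifi27, next to Ifi27l2a, had 11.39 ± 0.06 against 10.67 ± 0.35 and missed the threshold (adjusted p = 0.0123). It passed under 5 alternatives, without C57BL/6N replicate 2 (adjusted p = 0.00491), without the stroma-poor corneas (0.00583), after median centring (0.00668) or quantile normalization (0.00956), and with limma voom (0.00923). Ifi27l2b, on the other side, had 3 to 28 reads against 0 to 4 (adjusted p = 0.148). Ifit1bl2 was no longer past the threshold without the stroma-poor corneas (adjusted p = 0.0123) or without the lens-rich ones (adjusted p = 0.0189). Another relative, Gm14446, had no match by symbol.

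Of 22 other interferon effectors, 19 were higher in BALB/cN by limma and 0 lower, with a median rlog difference of 1.62. None was lower at an unadjusted p under 0.05 or by limma voom (0 in both). The list was drawn up with earlier results known, so the count is not independent evidence of a direction. Oas2, which makes the messenger that activates RNase L, differed by 3.85 (12.76 ± 0.30 against 8.91 ± 0.35, adjusted p = 1.80e-06), and its relative Oas3 by 2.73 (adjusted p = 5.99e-07). Cmpk2, a nucleotide kinase beside Rsad2, differed by 3.66 (adjusted p = 1.86e-05), and Rtp4 by 3.10 (adjusted p = 4.85e-06). The GTPases Mx1 and Mx2 differed by 3.04 and 2.91 (adjusted p = 0.000366 and 0.000156), with 0 to 35 and 1 to 32 reads in C57BL/6N against 232 to 1071 and 291 to 1099 in BALB/cN. The others that rose, in order of size, were Lgals3bp, Xaf1, Oas1a, Bst2, Ddx60, Parp14, Oasl2, Oasl1, Eif2ak2, Parp9, Epsti1, Samd9l and Ifi35, by 0.78 to 2.26. Isg20 (0.02), Dtx3l (0.45) and Ifitm3 did not pass, and Ifitm3 had 3499 to 6689 reads in BALB/cN and 1589, 1556, 118 and 120 in C57BL/6N (difference 2.32, adjusted p = 0.0241), and its 2 low corneas were the stroma-poor ones. Ifitm3 passed without the stroma-poor corneas (difference 1.34, adjusted p = 0.00485) and after median centring (adjusted p = 0.00808), and Dtx3l (adjusted p = 0.0124) passed without those corneas (0.00937) and after quantile normalization (0.00321).

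The count of 19 depended on the processing and on the corneas used. When limma's p-values were rescaled to the spread of all test statistics, 0 genes of any list passed, and 1730 of all genes tested had an unadjusted p under 0.05. Without the lens-rich corneas 13 of the 22 effectors passed, and without the stroma-poor corneas 17 did, with Ifitm3 and Dtx3l gained and Bst2, Epsti1, Mx1 and Mx2 lost. Bst2 (difference 1.73, limma adjusted p = 0.00477) did not pass when BALB/cN replicate 1, 2 or 4 or C57BL/6N replicate 3 or 4 was left out. Its adjusted p was then 0.0114 to 0.0205, at differences of 1.51 to 1.77. Epsti1 (difference 0.89, adjusted p = 0.00602) did not pass when any cornea but BALB/cN replicate 3 or C57BL/6N replicate 2 was left out. Its adjusted p was then 0.0176 to 0.0225, at differences of 0.80 to 0.91. With 1 cornea left out, the genes called among all tested also fell, from 1458 to between 953 and 1163. On recovered reads with limma voom, Mx1 (adjusted p = 0.0562), Mx2 (0.0221) and Epsti1 (0.0142) did not pass. With the replicate number as a block in limma, Bst2 (adjusted p = 0.0179), Ifi35 (0.0119) and Epsti1 (0.0246) did not pass.

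Upstream of the effectors, the ligands were nearly absent. Of 16 interferon genes, 13 were at 0 in all 8 corneas, among them Ifnb1, Ifng, Ifnl2 and Ifnl3, and a count of 0 allows up to 3 reads per cornea. The other 3 fell under the filter and were not tested, Ifna13 with 4 reads in BALB/cN replicate 4, Ifne with 2 reads in C57BL/6N replicate 1, and Ifnk with 1 read in each of 3 corneas. A difference in ligand RNA was not detectable at this depth.

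Of 16 receptor and signalling genes, 4 were higher in BALB/cN by limma and 0 lower (3 lower at an unadjusted p under 0.05, and 0 by limma voom). Irf7, a transcription factor that is itself induced by interferon, differed by 1.93 (12.74 ± 0.16 against 10.81 ± 0.12, adjusted p = 1.31e-06). Irf9 and Stat2, whose proteins bind the response element together, rose as well, Irf9 by 1.59 (adjusted p = 4.25e-06) and Stat2 by 1.16 (adjusted p = 0.000133). The feedback inhibitor Socs1 differed by 0.66 (adjusted p = 0.00637). Among the others, Irf3 (-0.21), Socs3 (0.21), Ifngr1 (-0.20) and Tyk2 (-0.19) had the largest differences and did not pass (adjusted p = 0.0405 to 0.597). The receptor chains Ifnar1 and Ifnlr1 and the kinases Jak1 and Jak2, named for their role after their values were seen, did not pass either, with 10.25 ± 0.10 against 10.37 ± 0.04 for Ifnar1 and 10.37 ± 0.06 against 10.21 ± 0.17 for Ifnlr1 and differences of -0.08 and 0.08 for Jak1 and Jak2. Socs1 did not pass when any cornea but C57BL/6N replicate 2 was left out (adjusted p = 0.0112 to 0.0261), or with the replicate block (0.0181). Without the stroma-poor corneas 2 of the 16 passed, Irf9 and Irf7, and without the lens-rich ones 3.

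Of 9 sensors of nucleic acids and their adaptors, 5 were higher in BALB/cN by limma and 0 lower (0 also at an unadjusted p under 0.05 and by limma voom). Zbp1, a sensor of left-handed nucleic acids, differed most, by 3.23 (10.71 ± 0.28 against 7.48 ± 0.18, adjusted p = 9.44e-07), with 1807 to 3146 reads against 62 to 122. The RNA sensors Dhx58, Ifih1, Ddx58 and Tlr3 differed by 1.95, 1.15, 0.80 and 0.57. The adaptors Mavs and Tmem173 and the DNA sensor Mb21d1 did not pass, and neither did Tlr7, with 0 to 41 reads. Tlr3 did not pass without the stroma-poor corneas (adjusted p = 0.0143), and without the lens-rich ones 3 of the 9 passed.

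**Figure D4:**
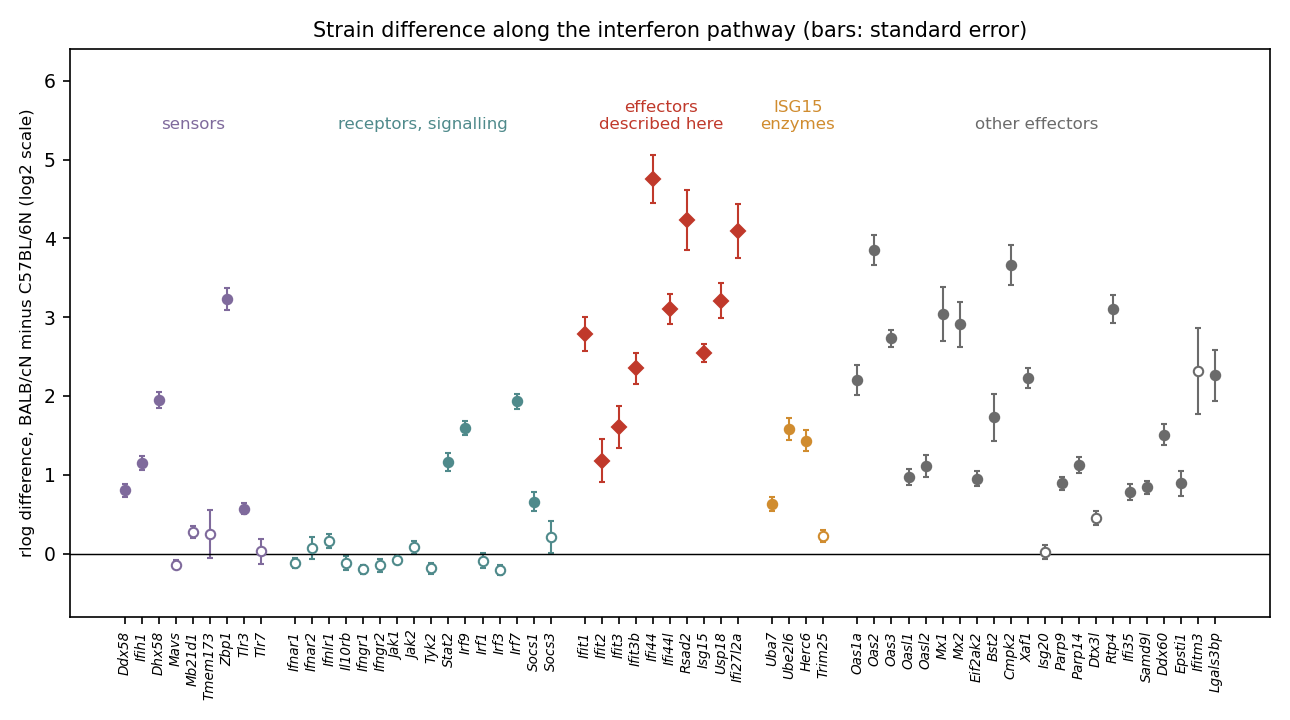
The rlog difference between the strains (BALB/cN minus C57BL/6N, log2 scale) for sensors, receptors and signalling genes, the 10 effectors, the ISG15 enzymes and other effectors, with the standard error of limma as bars. Filled circles passed an adjusted p of 0.01 and open ones did not. Diamonds are the 10 effectors, all filled whether or not they passed, since the strain contrast chose them. Receptor and kinase genes lie near 0, and the effectors reach 4.75.

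The genes nearest to the effectors were compared to see whether a whole stretch of chromosome differed. Over the 6 loci, 38 protein-coding genes were tested, the nearest 3 that passed the filter on each side and those inside the Ifit cluster, at distances of up to 4747 kb, and 5 passed the threshold, against 5.74% of all genes tested in either direction. The 4 that were higher in BALB/cN were Ifit1bl2 and Cmpk2, given above, AW011738, which lies 2.49 kb from Isg15 (9.54 ± 0.19 against 8.72 ± 0.07, adjusted p = 0.000467), and Ddx24, an RNA helicase gene 16.3 kb from Ifi27l2a (11.28 ± 0.05 against 10.85 ± 0.04, adjusted p = 0.000489). Kidins220, 1380 kb from Rsad2, was lower (12.82 ± 0.04 against 13.10 ± 0.10, adjusted p = 0.00932) and did not pass when any cornea was left out (adjusted p = 0.0106 to 0.0341). AW011738 did not pass without the stroma-poor corneas (adjusted p = 0.0142) or the lens-rich ones (0.0163), or with the replicate block (0.0118). Ddx24 did not pass after median centring (0.0601), without the lens-rich corneas (0.0117) or with the replicate block (0.0105).

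Most of the genes directly beside the effectors did not pass. Lipa and Slc16a12, on the sides of the Ifit cluster, differed by 0.48 (adjusted p = 0.0942) and 0.25 (adjusted p = 0.0110), and Agrn, 1.94 kb from Isg15, by 0.07. Slc16a12 passed with no variance trend (adjusted p = 0.00922), with a mean of at least log2(10) (0.00593) and after quantile normalization (0.00909). Adgrl4 and Ptgfr beside the Ifi44 pair differed by 0.27 and 0.23, Tuba8 and Slc6a13 beside Usp18 by 0.03 and -0.08, and Rnf144a beside Rsad2 by 0.42. These differences had adjusted p-values of 0.0110 to 0.882.

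**Figure D5:**
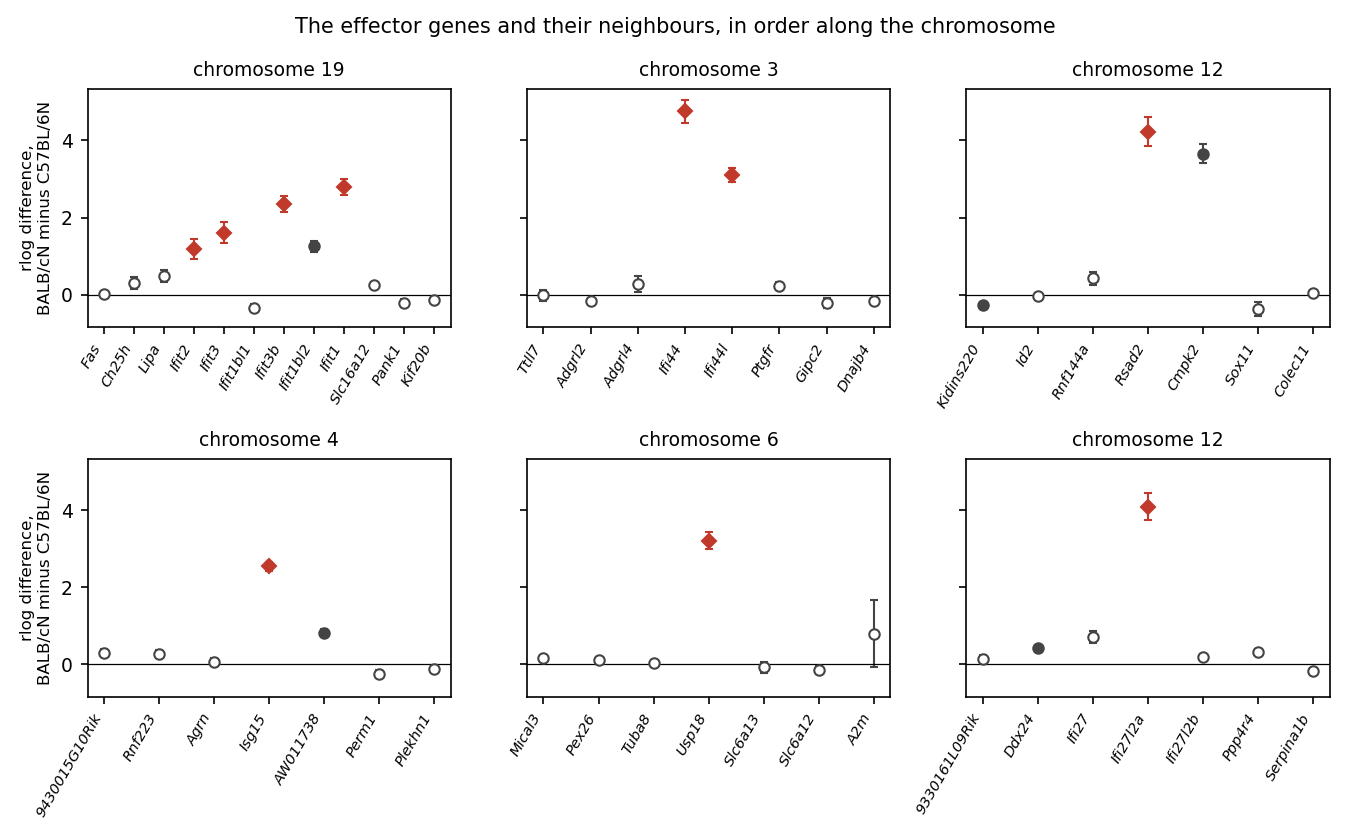
The rlog difference (BALB/cN minus C57BL/6N, log2 scale) of the effector genes (red diamonds) and their tested neighbours (circles, filled where the adjusted p was 0.01 or less), in chromosomal order at 6 loci, with standard errors as bars. Positions are ranks and not distances. Ifit1bl1, between Ifit3 and Ifit3b, lies at -0.35, and Cmpk2, beside Rsad2, at 3.66.

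The genes whose values over the 8 corneas were most like the mean rlog of the 10 effectors were ranked among 13950 protein-coding genes. Outside the group they were Slfn4 (Pearson r = 0.998), Apol9b (0.997), Oas2 (0.996), Ifi203 (0.995) and Slfn2 (0.995), with rlog differences of 3.28, 4.12, 3.85, 4.43 and 2.56. Among the 10, Usp18 was closest (0.999), and Ifit3 (0.950) and Ifit2 (0.908) were least close, behind many other genes at places 270 and 571. Each of the 10 is itself part of the mean it was set against, and the genes outside the group are not. These values are a description over 8 corneas, of which 4 share each strain, so they mostly reflect the strain difference.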

How the data were processed

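Strand-specific libraries of total RNA from 8 corneas were read from both ends, 100 bases each. The authors trimmed reads, removed ribosomal and transfer RNA, aligned with TopHat2 2.1.1 to a pseudo-genome of each strain made from GRCm38, and counted reads on the exons of each Ensembl gene with HTSeq 0.7.1. The authors deposited 1 table, which holds the rlog transform of these counts from DESeq2 1.30, in log2 units. All columns were mapped by the sample labels, with 0 left unused.

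The 25402 genes whose mean rlog was at least 0 entered limma 3.58.1 (R 4.3.3), with eBayes and its intensity-dependent variance prior. Genes with a Benjamini-Hochberg adjusted p of 0.01 or less were called. The members and gene lists were chosen with earlier results of these data known. Of the lists, all genes of the relatives and ISG15 enzymes were named, and elsewhere those called and up to 4 others with the largest difference, with exceptions named in the text. A signalling gene is not reported here and was left out of its list. Reads were recovered by inverting the rlog model, with constants fitted to mean counts of 1759 genes in a supplementary table of the study, of which a part was read, and refined on all genes by the share of values near whole numbers. No 2 corneas of a strain agreed within sampling noise (chi-square per gene of 11 or more). The C57BL/6N corneas formed 2 closer pairs, replicates 1 and 2 (11) and replicates 3 and 4 (16.1), against 94.3 to 96.3 between these pairs. Copies were screened with blastn 2.17.0 (at least 95% identity over 200 bases). Gene positions, exon lengths and types came from GENCODE on GRCm38. Python 3.11.15, numpy 2.4.6, pandas 2.3.3, scipy 1.17.1 and matplotlib 3.10.9 were used. The recovery of reads and the main limma fit were tested on simulated counts, made with the same fitted constants. The other procedures were not tested in this way.

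Alternatives were no variance trend, other filters on the mean, median centring, quantile normalization, an empirical null, the replicate block, limma voom on recovered reads, leaving out each cornea, an adjusted p of 0.05, reads summed over near copies and other motif spacings. Leaving out stroma-poor or lens-rich corneas was chosen after seeing the data.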

Additional observations from a re-analysis of the deposited data

Results flagged for a closer look

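In 130 groups of 4 corneas (each gene of the effectors, their relatives, the ISG15 enzymes, the other effectors, the signalling genes and the sensors in each strain), 5 had 1 cornea far from the other 3 by Dixon's ratio of gap to range, where chance gives 1 in 20, or 6.5. In C57BL/6N, replicate 1 stood high in Ifit3 (rlog 9.20, the next at 9.01, ratio 0.910) and in Isg15 (9.37, the next at 9.27, ratio 0.863). In BALB/cN, replicate 3 stood low in Ifit1bl2 (6.84, the next at 7.27, ratio 0.929) and in Rtp4 (11.40, the next at 11.68, ratio 0.841). In C57BL/6N, replicate 4 stood low in Ifnar2 (7.57, the next at 8.01, ratio 0.906).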

How the results depend on the processing

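On the rlog scale, the differences of 3 of the 10 effectors moved by more than the spread between replicates, Ifit2 (0.64), Ifi44 (4.17) and Rsad2 (3.50), each without the stroma-poor corneas. The replicate block leaves these differences as they are by construction. The median difference of the 10 genes was 2.83 to 3.16 when 1 cornea was left out. On recovered reads, where no shrinkage applies, limma voom gave a median of 4.30. With Ifit3 and Ifit3b summed, the log2 ratio of the reads was 2.78, against 2.37 and 3.34.

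The 1458 genes called between the strains became 958 after median centring, which moved the median of all genes to -0.07 and the share of higher calls from 49.2% to 43.1%, 2842 at an adjusted p of 0.05, 852 without the stroma-poor corneas, 447 without the lens-rich ones, and 953 to 1163 with 1 cornea left out (953 without C57BL/6N replicate 4). Recalibrated to the empirical null (SD 1.67), 0 genes and 0 of the other effectors were called by limma, with a smallest adjusted p of 0.13, and 1730 genes had an unadjusted p under 0.05. The 19 other effectors called were 16 to 20 under the other planned settings at 0.01 and 17 to 19 with 1 cornea left out. With the replicate block 554 genes and 16 of the other effectors were called. Over all genes tested, the deviations of same-numbered corneas from their strain means had correlations of 0.31, -0.53, -0.20 and -0.45. The corneas differed in tissue content, so these correlations cannot tell whether the numbers pair the corneas.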
